A study of Homo sapiens with 4 samples.

Results

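The 4 HOX clusters hold the homeobox genes HOXA to HOXD, which encode transcription factors, and they were taken as fixed stretches of hg38. These were HOXA at chr7:27090000-27215000, HOXB at chr17:48520000-48735000, HOXC at chr12:53930000-54060000 and HOXD at chr2:176085000-176195000. All CpGs in them that the tables of all 4 libraries list were used, 10806 of the 23269121 CpGs that the libraries share over chromosomes 1 to 22 and X. Of 16759 reference CpGs in the clusters these were 64.5%, with 2847 in HOXA, 3490 in HOXB, 2341 in HOXC and 2128 in HOXD. The CpGs were read by cluster and by 38 genes, 10 in HOXA, 10 in HOXB, 9 in HOXC and 9 in HOXD.

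The assay was whole-genome bisulfite sequencing, in which an unmethylated cytosine reads as T and a methylated one as C. All 4 libraries came from HUDEP-2, 1 immortalised human erythroid precursor line, and there was 1 library per group. One group was untreated and not differentiated, and the other 3 were differentiated, with either DMSO alone, an inhibitor of DNMT1 or an inhibitor of EED. Compounds were in 0.1% DMSO from expansion on, through 4 days of growth and 2 days of maturation, and doses and compound names are not given in the sources used here. The medium held doxycycline, which drives the immortalising transgenes, at every stage, and per the labels fetal haemoglobin went up in the cells given either inhibitor. Erythroid differentiation and exposure to DMSO cannot be told apart when the DMSO library is set against the untreated one. The design therefore has no spread between replicates, and each test compared the reads of 2 libraries and not 2 conditions. Intervals are 95%, Wilson for levels and Newcombe for differences, and cover counting error only. Intervals and tests treat every read at every CpG as separate, though a read that covers several CpGs is counted at each. Copies made by PCR are not separate molecules either, and no molecular identifier is named in the sources used here. The intervals are therefore too narrow even for counting error, and the p-values too low.

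HOX genes give cells of the embryo their position along the body axis, and the order of the genes in a cluster follows the order in which they are used along that axis. In blood, several of them are active in stem and progenitor cells and are turned down as cells mature. Silent HOX genes are classic targets of the Polycomb complex, in which EED holds and stimulates the enzyme that methylates histone H3 at lysine 27, and CpG-dense DNA under Polycomb is typically poor in DNA methylation. DNMT1 copies CpG methylation onto newly made DNA, so blocking it lets methylation thin out as cells divide.

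Shared CpGs had a mean coverage of 28.0 to 30.8 reads per library over the genome and 20.9 to 23.1 in the clusters. The clusters are CpG-dense: the median shared CpG had 25 CpGs within 250 bp in HOXA, 17 in HOXB, 19 in HOXC and 23 in HOXD, against 7 over the genome. Only 48.3% of the reference CpGs in the 38 promoters were listed in all 4 libraries, from 37.96% in HOXD to 58.6% in HOXB, so the densest promoter DNA is seen in part. The cell type could be looked at through promoter methylation alone, which does not settle it. With DMSO the 8 erythroid marker promoters had a median of 12.2%, with KLF1 at 2.12% and HBA1 at 1.28% but SLC4A1 at 83.5%. The 4 lymphoid markers had a median of 57.4% and the 4 myeloid ones 24.3%. Low levels were not particular to erythroid markers. With DMSO the 38 HOX promoters had a median of 14.8% and those of 7 cofactors of HOX proteins 5.58%.

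3 stretches of 300 bases show what the reads covered, and capitals mark the CpGs that all 4 libraries list. The promoters of HOXB1, HOXA9 and HOXD12, each from 250 bases before to 50 after the gene start and written in the direction of the gene, are shown as a heavily methylated, a nearly unmethylated and a thinly methylated one. They are RefSeq sequences of GRCh38.p14. Promoter sequences of 20 of the 38 genes were used, and all 20 were identical to the hg38 reference. In 17 of them the RefSeq start was the start used for promoter levels below, but not in HOXA10, HOXC4 and HOXC5.

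HOXB1 promoter, chr17:48530962-48531261, minus strand, 5 of 11 CpGs in capitals: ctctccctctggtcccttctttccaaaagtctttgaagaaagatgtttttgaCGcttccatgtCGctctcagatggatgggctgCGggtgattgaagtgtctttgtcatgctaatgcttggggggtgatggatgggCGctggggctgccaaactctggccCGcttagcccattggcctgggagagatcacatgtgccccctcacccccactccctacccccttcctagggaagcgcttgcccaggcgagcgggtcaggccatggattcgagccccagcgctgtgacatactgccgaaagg
HOXA9 promoter, chr7:27165488-27165787, minus strand, 22 of 22 CpGs in capitals: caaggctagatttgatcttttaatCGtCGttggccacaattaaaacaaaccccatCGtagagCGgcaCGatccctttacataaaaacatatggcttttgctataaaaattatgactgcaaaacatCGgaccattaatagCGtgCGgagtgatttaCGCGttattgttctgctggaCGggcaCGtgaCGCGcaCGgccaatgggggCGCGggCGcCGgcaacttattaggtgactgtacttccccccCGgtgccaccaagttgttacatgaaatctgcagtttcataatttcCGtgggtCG
HOXD12 promoter, chr2:176099545-176099844, plus strand, 19 of 19 CpGs in capitals: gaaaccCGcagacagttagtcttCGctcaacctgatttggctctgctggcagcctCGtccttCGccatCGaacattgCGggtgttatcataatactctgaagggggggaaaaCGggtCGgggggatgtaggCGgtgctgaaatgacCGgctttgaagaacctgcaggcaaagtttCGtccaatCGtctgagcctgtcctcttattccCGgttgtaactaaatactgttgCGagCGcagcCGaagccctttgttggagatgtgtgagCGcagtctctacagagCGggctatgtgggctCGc

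Levels of the 4 libraries are given in 1 order, first non-differentiated, then DMSO, then DNMT1 inhibitor and last EED inhibitor, as methylated reads over all reads of the shared CpGs in a stretch. The HOXB1 stretch stood at 76.6%, 69.4%, 12.7% and 56.5% over its 5 CpGs, with only 62 to 92 reads in a library. The HOXA9 stretch stood at 3.18%, 3.61%, 1.72% and 3.16%. The HOXD12 stretch stood at 12.2%, 7.30%, 2.40% and 14.7%.

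The clusters were less methylated than the genome, and HOXC and HOXD far less than HOXA and HOXB. HOXA stood at 37.6%, 35.9%, 15% and 37.5%. HOXB stood at 46.4%, 45.2%, 10.4% and 46.9%. HOXC, at 18.1%, 17.4%, 3.71% and 19.0%, and HOXD, at 18.2%, 17.0%, 4.88% and 19.0%, were close to each other in every library. All shared CpGs of the genome stood at 61.7%, 60.3%, 16.8% and 59.3%. The 3 libraries without the DNMT1 inhibitor lay within about 2 points of each other in each cluster, and the DNMT1 inhibitor library lay below them in all 4.

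**Figure D1:**
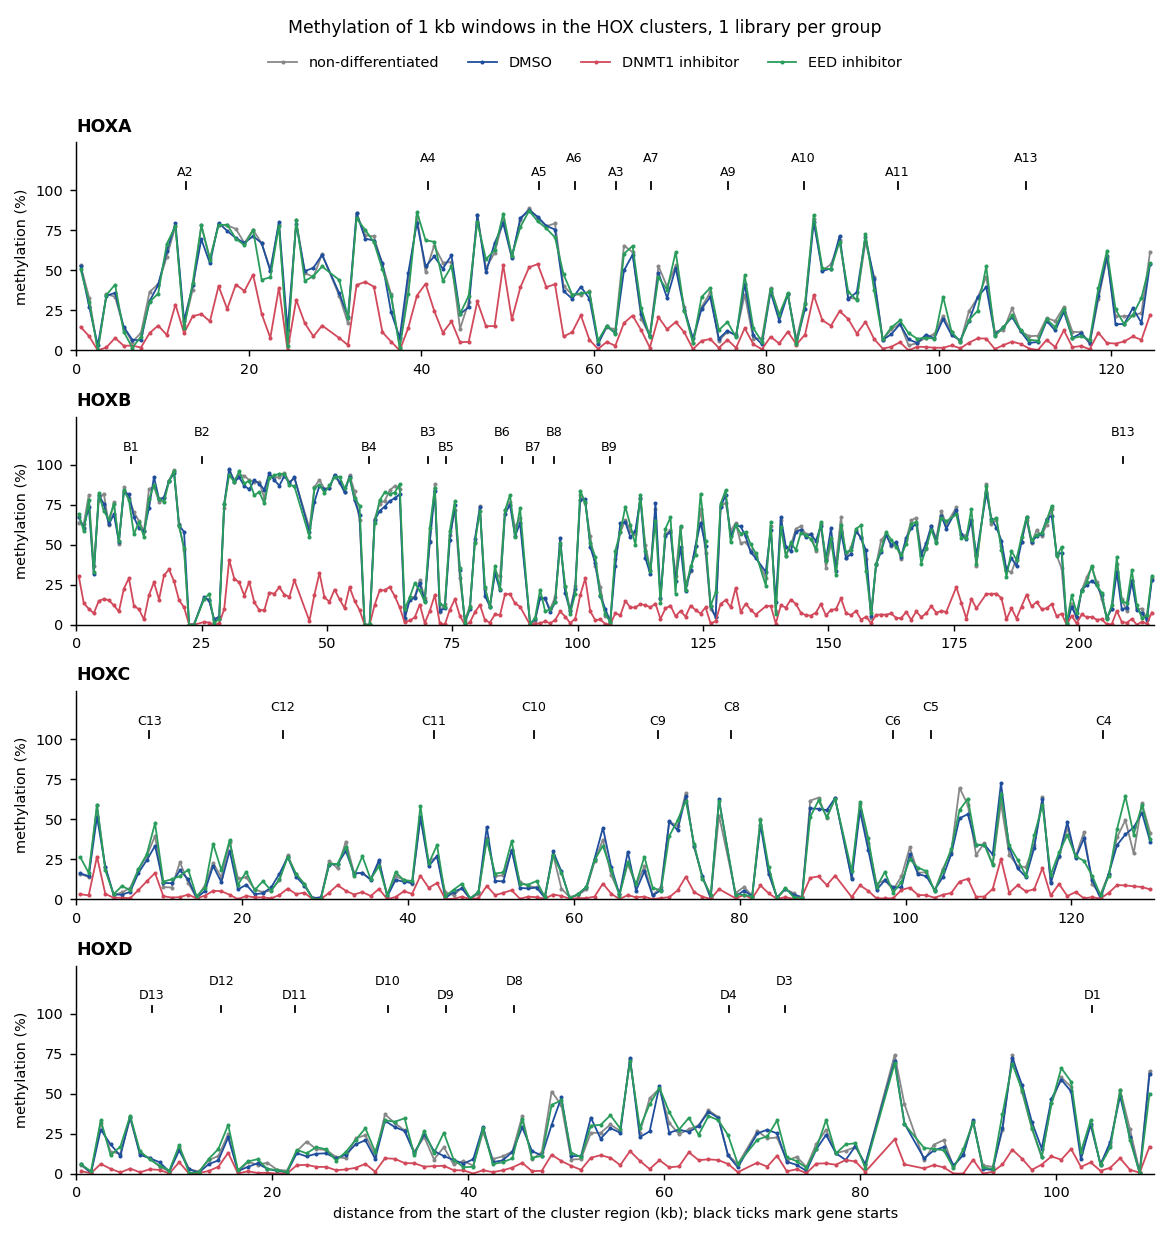
Methylation (%) of each 1 kb window with at least 3 shared CpGs along the 4 clusters, by distance (kb) from the start of the region; each line is 1 library and ticks mark gene starts. The DNMT1 inhibitor line lies under the other 3 lines almost throughout, and HOXC and HOXD hold long stretches under 20%.

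Methylated DNA was arranged in blocks in HOXA and HOXB. Runs of at least 3 neighbouring 1 kb windows at 60% or more before differentiation, a cut chosen after the values were seen, covered 14 kb in 3 runs in HOXA and 63 kb in 9 runs in HOXB, and there was none in HOXC or HOXD. The longest, chr17:48549001-48577000, spans 28 kb within the HOXB3 transcript and reaches into that of HOXB4. It stood at 88.9%, 86.9%, 21.1% and 87.5%. It holds 26 windows with at least 3 shared CpGs, and lengths of runs include any kb between such windows. In HOXA one run, chr7:27141001-27146000, holds HOXA5 and stood at 81.0%, 81.2%, 45.6% and 77.9%. Runs under 20% covered 22 kb in HOXA, 25 kb in HOXB, 57 kb in HOXC and 36 kb in HOXD. The longest of these, 9 kb at chr2:176091001-176100000 over the starts of HOXD13 and HOXD12, stood at 6.89%, 6.21%, 2.03% and 8.09%.

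Promoters, taken from 1000 bp before to 500 bp after the gene start, were mostly thinly methylated before differentiation. The median of the 38 was 17.3%, with 24 under 20% and 5 over 50%. Each had 10 to 93 shared CpGs, and no CpG fell in more than 1 promoter.

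In HOXA the promoter of HOXA5, a gene of the neck, trunk and lung, was the most methylated of the 38, at 80.5%, 81.5%, 46.0% and 79.4% over 93 of its 108 CpGs. HOXA4 followed at 58.3%, 50.9%, 24.4% and 62.2% over 24 of 119 CpGs. The other HOXA promoters lay well below these. HOXA6 stood at 37.1%, 37.4%, 14.0% and 37.3%. HOXA10, which like HOXA9 is active in blood progenitors, stood at 34.7%, 32.4%, 12.5% and 36.1% around the start used here, chr7:27174320. Its RefSeq start is another one, chr7:27179861. The stretch of 300 bases around that start, with 21 of 21 CpGs, stood at 8.25%, 8.25%, 4.62% and 7.97%. HOXA9 stood at 9.22%, 9.07%, 5.52% and 13.3%. The lowest was HOXA13, a gene of the distal limb, at 8.83%, 4.93%, 0.964% and 6.08%, though only 17 of its 148 CpGs were listed in all 4 libraries. HOXA2, HOXA3, HOXA7 and HOXA11 lay between 19.3% and 22.7% before differentiation.

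In HOXB, HOXB1, which patterns the hindbrain, was highest at 76.3%, 76.6%, 25.0% and 73.8% over 37 of 43 CpGs. HOXB6 stood at 63.3%, 58.0%, 15.4% and 60.3%, and HOXB3 at 49.1%, 47.2%, 7.96% and 56.6%. HOXB7 was lowest, at 1.61%, 2.06%, 0.397% and 2.49% over 64 of 91 CpGs. Neighbours could differ widely: the starts of HOXB6 and HOXB7 lie about 6 kb apart. HOXB4, a gene linked to the self-renewal of blood stem cells, lay between these extremes at 29.9%, 27.1%, 4.68% and 26.1%. HOXB5 stood at 33.2%, 26.4%, 4.85% and 32.9%. HOXB2, HOXB8, HOXB9 and HOXB13 lay between 6.34% and 17.7% before differentiation.

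In HOXC the highest promoter was that of HOXC13, a hair and nail gene, at 31.2%, 29.6%, 11.6% and 31.04% over 24 of 98 CpGs. HOXC11 followed at 25.0%, 23.8%, 8.77% and 28.9%. The promoter of HOXC8 had no methylated read in 3 libraries and 1.78% with the EED inhibitor. It rests on 10 of 69 CpGs. A count of 0 in the 136 reads with DMSO allows a level of up to 2.21% (3 reads of 136) if all are separate reads. A read that covers several CpGs is counted at each, and mean coverage with DMSO was 13.6 reads per CpG, so the limit could be higher. HOXC4, HOXC5, HOXC6, HOXC9 and HOXC10 lay between 2.08% and 9.64% before differentiation, and HOXC12 stood at 19.6%, 22.1%, 6.51% and 16.7%.

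In HOXD the promoter of HOXD10, which acts in limb motor neurons, stood apart at 53.2%, 46.9%, 13.3% and 50.6% over 25 of 77 CpGs. The other 8 lay between 8.05% and 17.5% before differentiation, with HOXD13 lowest at 8.05%, 9.93%, 1.82% and 10.4%. HOXD8 was lowest with DMSO, at 8.83%, 9.15%, 2.48% and 5.76%. HOXD1 stood at 17.2%, 12.1%, 5.59% and 20.1%, though only 14 of its 128 CpGs were listed in all 4 libraries. Next to HOXD10, HOXD11 stood at 11.8%, 10.3%, 3.79% and 12.3%, and HOXD12 at 13.3%, 10.2%, 4.92% and 16.4%.

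**Figure D2:**
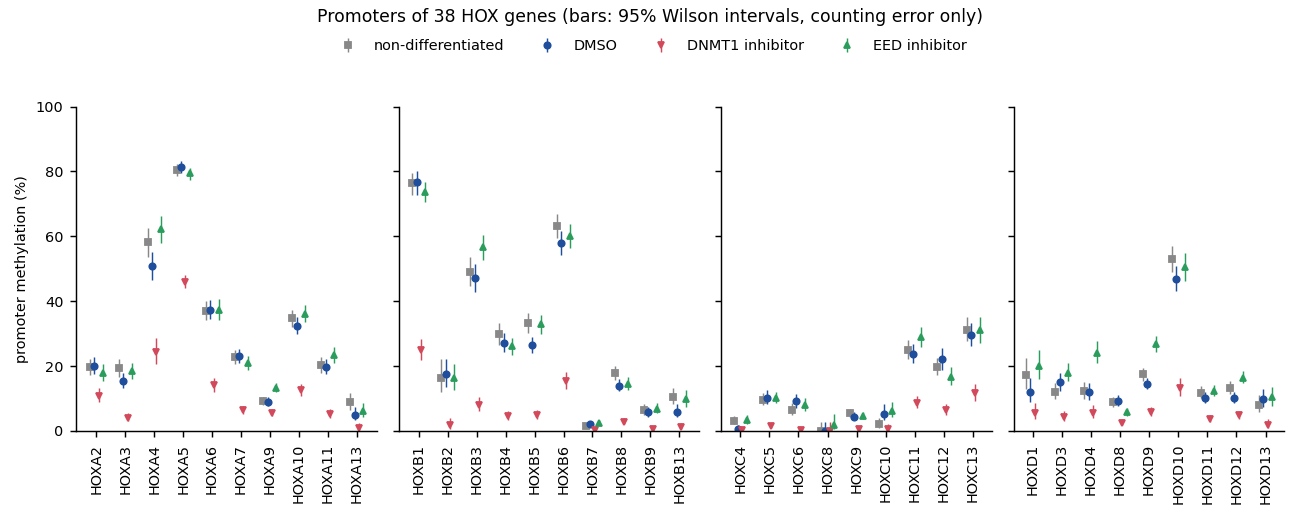
Methylation (%) of the 38 promoters by cluster, 1 point per library with its 95% Wilson interval (counting error only). HOXA5 and HOXB1 stand highest, and the DNMT1 inhibitor points lie lowest at 37 promoters.

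Transcript spans, from first to last base of the transcript, had a median level before differentiation of 35.6% in HOXA, 29.9% in HOXB, 15.04% in HOXC and 12.7% in HOXD. HOXA5 was highest at 90.7%, 89.5%, 55.3% and 88.7%. The span of HOXB1 stood at 78.2%, 78.4%, 25.2% and 77.0%. The span of HOXB3, with 642 CpGs, stood at 76.1%, 71.03%, 17.8% and 73.4%, and that of HOXA3, with 921, at 59.8%, 58.1%, 27.4% and 58.4%. HOXB2 was lowest, at 0.603%, 0.127%, 0.116% and 0.132%. Spans overlap, and 192 of 4446 CpGs in spans lie in more than 1. With DMSO, exons were the most methylated feature in HOXA, at 48.9%, and introns in HOXB, at 59.4%, while the DNA between genes was highest in HOXC, at 19.03%, and HOXD, at 21.5%.

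Differentiation with DMSO left the clusters almost as they were. The levels were lower than in non-differentiated cells by 1.73 points in HOXA (interval -2.27 to -1.18), 1.26 in HOXB (-1.77 to -0.763), 0.658 in HOXC (-1.13 to -0.182) and 1.26 in HOXD (-1.75 to -0.773). With a minimum of 20 reads the HOXC difference changed sign, to 0.209 points, and those of HOXA and HOXD were -0.777 and -2.16. With equal weights per CpG HOXA differed by -1.03, and over every listed CpG HOXD by -0.767. The whole genome differed by -1.42 points. Of the 566 windows with at least 3 shared CpGs, 218 (38.5%) were higher and 345 (61.0%) lower with DMSO. This was near the 40.3% and 59.4% of all windows of the genome. In Fisher's exact test (two-sided, on reads), adjusted by Benjamini-Hochberg over all windows, promoters or CpGs of the genome, none of the 566 windows, 38 promoters or 10806 CpGs had an adjusted p under 0.01 with at least 25 points in either direction. Over the genome 0.00115% of windows, 0% of promoters and 0% of CpGs had. At an unadjusted p under 0.05 there were 59 windows and 217 CpGs, where the genome had 8.31% of windows and 2.55% of CpGs. The lowest adjusted p was 0.0527 for a window and 1 for a CpG.

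Single promoters differed little. With DMSO 23 were lower and 14 higher, where 55.8% of all promoters were lower and 43.4% higher. The median was -0.836 points against -0.251 over all promoters. The most negative differences were at HOXA4 (-7.34 points), HOXB5 (-6.83), HOXD10 (-6.24), HOXB6 (-5.27) and HOXD1 (-5.01). Each was smaller when every CpG counted equally, whatever its reads: -2.93, -2.17, -0.297, -1.31 and -1.76 points in the same order. Counted so, HOXB3 (-4.54 points), HOXA3 (-4.33) and HOXB13 (-3.77) were the most negative. The largest values above 0 were at HOXC10 (3.23 points), HOXD3 (2.89), HOXC6 (2.60), HOXC12 (2.51) and HOXD13 (1.89). With CpGs counted equally HOXB2 was highest, at 3.94 points against 1.13 pooled, then HOXD3 (3.36) and HOXC10 (3.15), and HOXC12 was at 1.51. None of these was called.

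With the DNMT1 inhibitor methylation was lower in every cluster, but HOXA kept a larger share of it than the other clusters. The DNMT1 inhibitor library was below DMSO by 20.9 points in HOXA, 34.8 in HOXB, 13.7 in HOXC and 12.1 in HOXD, against 43.5 over the genome. As a share of the DMSO level, HOXA kept 41.8% (40.9 to 42.7%), HOXB 22.96% (22.5 to 23.5%), HOXC 21.3% (20.3 to 22.3%) and HOXD 28.8% (27.5 to 30.1%). The genome kept 27.9%. In the 100 kb on either side, the kept shares were 29.4% around HOXA, 22.7% around HOXB, 20.1% around HOXC and 28.0% around HOXD, so that HOXA alone stood well above its surroundings.

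**Figure D3:**
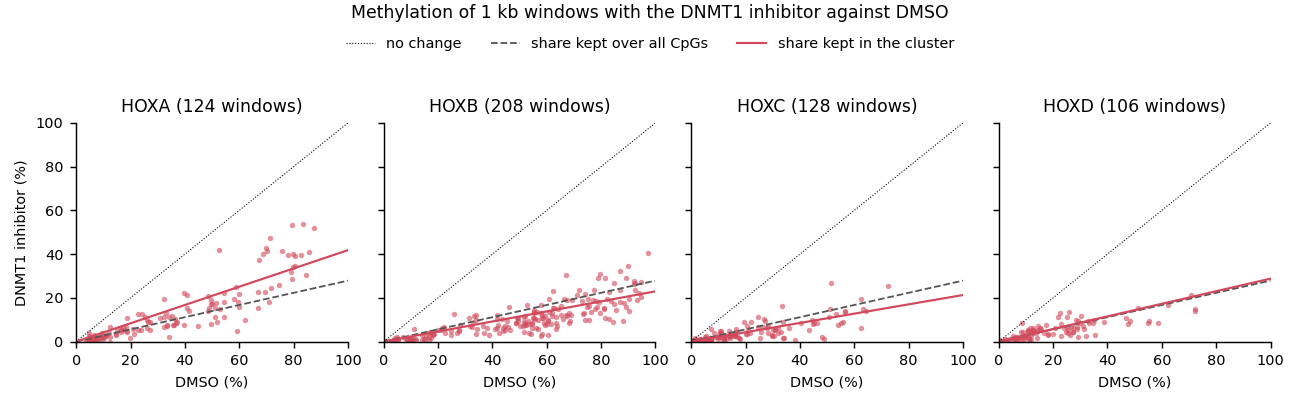
Methylation (%) of each 1 kb window in the DNMT1 inhibitor library against the DMSO library, by cluster; the dotted line marks equal levels, the dashed line the 27.9% kept over all CpGs, and the solid line the share kept in the cluster. The solid line lies above the dashed one in HOXA (41.8%) and below it in HOXB (22.96%) and HOXC (21.3%).

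HOXA and HOXB were also compared among CpGs of like starting level and density. Among CpGs at 80% or more before differentiation, the 649 in HOXA went from 89.9% with DMSO to 42.6% and kept 47.4% (46.4 to 48.3%). The 1148 in HOXB went from the same 89.9% to 22.4% and kept 24.9% (24.4 to 25.5%). All such CpGs of the genome kept 30.7%. The kept share was higher where CpGs were denser. In HOXA it was 26.5%, 36.8%, 39.8%, 48.5% and 64.4% for CpGs with 1 to 5, 6 to 10, 11 to 20, 21 to 30 and 31 or more CpGs within 250 bp. In HOXB the same steps gave 19.0%, 22.01%, 26.0%, 29.1% and 38.2%, and over the genome 25.9%, 29.8%, 34.5%, 40.6% and 51.3%. HOXA was above HOXB and HOXB below the genome in each step. The densest step holds 209 CpGs in HOXA and 115 in HOXB.

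Promoters kept 48.8% of the DMSO level in HOXA and 24.6% in HOXB, exons 43.8% and 25.5%, and introns 42.1% and 23.9%. HOXD lay between HOXA and HOXB, at 35.2% for promoters, 36.1% for exons and 37.6% for introns. HOXC kept 28.5%, 24.3% and 12.4% in the same order. Between genes HOXA kept 35.65%, HOXB 21.7%, HOXC 20.3% and HOXD 24.3%. The other methylated blocks of HOXA, both in the span of HOXA3, at chr7:27106001-27112000 and chr7:27122001-27125000, kept 53.2% and 53.7%, and the HOXA5 block kept 56.2%. The 28 kb block of HOXB3 kept 24.3%.

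Of the 566 windows, 256 (45.2%) were called at least 25 points lower with the DNMT1 inhibitor, against 81.3% of all windows of the genome. They were 59 of 124 in HOXA, 146 of 208 in HOXB, 33 of 128 in HOXC and 18 of 106 in HOXD. A fall of 25 points from DMSO needs that much methylation with DMSO, which 314 of the 566 had. Of those 314 the called ones were 81.5%, against 92.6% of such windows of the genome. Of the 10806 CpGs, 2715 (25.1%) were called lower, against 63.6% over the genome. A CpG under 25% with DMSO cannot be called. The median CpG stood at 12.5% with DMSO in the clusters and at 75.9% over the genome.

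The largest window falls were in HOXB and all 3 lay in the span of HOXB3. The window at chr17:48556001-48557000 went from 88.2% with DMSO to 9.31%, the one at chr17:48555001-48556000 from 90.3% to 14.0%, and the one at chr17:48557001-48558000, with 4 CpGs, from 84.4% to 9.09%. In HOXA the largest were chr7:27209001-27210000, outside the 38 spans, from 59.3% to 4.65% over 7 CpGs, chr7:27136001-27137000 in the span of HOXA3, from 84.5% to 30.6%, and chr7:27181001-27182000 in that of HOXA11, from 70.9% to 17.9%. In HOXC a window of 5 CpGs at chr12:54007001-54008000, which meets the upstream edge of the HOXC8 promoter, went from 62.5% to 6.33%, and chr12:54003001-54004000 at the end of HOXC9 from 64.4% to 14.1%. The third in HOXC, chr12:54021001-54022000 between genes, went from 63.2% to 14.8%. In HOXD all 3 lay between genes: chr2:176141001-176142000 went from 72.1% to 14.1%, chr2:176180001-176181000 from 72.2% to 14.96%, and chr2:176185001-176186000 from 58.7% to 8.63%.

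Of the 38 promoters 37 were lower with the DNMT1 inhibitor, as were 96.9% of all promoters. The median difference was -9.91 points against -20.8 over all promoters. Called at least 25 points lower were 6 of 38, HOXA4, HOXA5, HOXB1, HOXB3, HOXB6 and HOXD10, against 43.7% of all promoters. Only 11 of the 38 stood at 25% or more with DMSO, and the 6 called were 54.5% of these, against 82.3% of such promoters of the genome. A read that covers several CpGs is counted at each of them. When each promoter's reads were divided by its number of CpGs, none of the 38 was called, against 18.5% of all promoters, and the lowest adjusted p was 0.0219, at HOXB1. With the same division 174 of the 566 windows were called, against 66.1% of all windows of the genome.

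The 5 largest promoter differences were those of HOXB1 (-51.6 points), HOXB6 (-42.6), HOXB3 (-39.2), HOXA5 (-35.5) and HOXD10 (-33.6). HOXB1 and HOXA5 began within 5 points of each other and ended at 25.0% and 46.0%. All 37 shared CpGs of HOXB1 and 92 of 93 of HOXA5 were lower than with DMSO. The median CpG of HOXA5 went from 91.7% to 47.6%, and that of HOXB1 from 83.3% to 20%. The smallest differences were those of HOXC8 (0 points), HOXC4 (-0.374), HOXB7 (-1.66), HOXA9 (-3.55) and HOXC9 (-3.93).

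The median promoter kept 38.1% of its DMSO level in HOXA, 18.4% in HOXB, 22.5% in HOXC and 36.9% in HOXD. The ends of the range were HOXC6 at 2.45% and HOXA9 at 60.9%, the latter from a DMSO level of 9.07%. With CpGs counted equally HOXA9 kept 49.8%, and HOXA5 was highest at 58.5%. In pooled reads HOXA5 kept 56.5%. HOXB2, HOXB9 and HOXC9 kept little, as HOXC6 did, at 9.87%, 11.2% and 11.9%. These shares and that of HOXC6 rest on levels near 0 with the DNMT1 inhibitor and have no interval. HOXB2 stood at 1.72% of 290 reads, HOXB9 at 0.637% of 785, HOXC9 at 0.531% of 942 and HOXC6 at 0.224% of 893. HOXA2 kept 53.9%. In HOXD, whose promoters mostly began low, HOXD12 kept 48.2%, HOXD4 47.3% and HOXD1, over 14 of its 128 CpGs, 46.0%. With CpGs counted equally HOXD12 kept 49.7%, HOXD4 36.5% and HOXD1 36.7%.

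**Figure D4:**
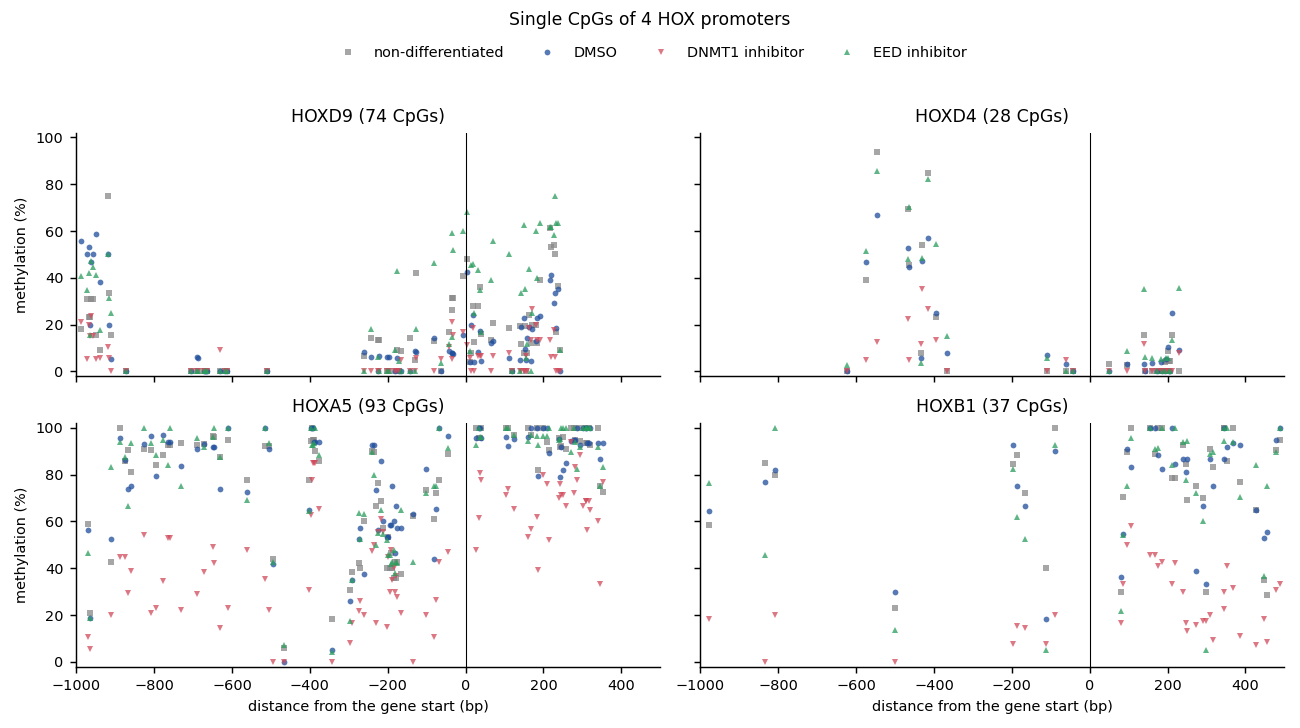
Methylation (%) of single shared CpGs in the promoters of HOXD9, HOXD4, HOXA5 and HOXB1 against distance (bp) from the gene start, 1 point per library. With the EED inhibitor many HOXD9 CpGs around the start lie above the other libraries, while with the DNMT1 inhibitor nearly all CpGs of HOXA5 and HOXB1 lie below DMSO.

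With the EED inhibitor the clusters were slightly more methylated than with DMSO, while the genome as a whole was slightly less. The difference was 1.58 points in HOXA (1.05 to 2.12), 1.72 in HOXB (1.22 to 2.21), 1.52 in HOXC (1.05 to 2.00) and 2.00 in HOXD (1.52 to 2.48), against -1.03 over the genome. It was 1.01 in HOXA with equal weights per CpG and 1.08 in HOXD over every CpG that a library listed. In the 100 kb on either side it was -1.06 around HOXA, 0.690 around HOXB, 0.274 around HOXC and -0.661 around HOXD. Against the non-differentiated library the clusters differed by -0.143, 0.455, 0.865 and 0.737 points, HOXA to HOXD, against -2.46 over the genome. The EED inhibitor library was thus close to the non-differentiated one, and the DMSO library, to which both are compared, was lower than both in each cluster, except that with a minimum of 20 reads it was 0.209 points above the non-differentiated one in HOXC.

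Of the 566 windows 340 (60.1%) were higher and 225 lower than with DMSO, where 43.4% of all windows were higher. Of the 38 promoters 27 were higher and 11 lower, with a median of 1.59 points, against 0.009 points and 50.3% higher over all promoters. The EED inhibitor library was above DMSO in the clusters whatever the level before differentiation, by 0.841 points at CpGs under 20%, 2.41 at 20 to under 80% and 1.19 at 80% or more, where the genome differed by -0.757, -1.71 and -0.246. CpGs at 20 to under 80% before differentiation stood at 46.4% in non-differentiated cells, 43.9% with DMSO and 46.3% with the EED inhibitor in the clusters, and at 52.1%, 51.9% and 50.2% over the genome. In this middle class HOXD was 4.98 points above DMSO.

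No window, promoter or CpG of the clusters was called at 25 points with the EED inhibitor in either direction. Over the genome 0.0325% of windows, 0.0221% of promoters and 0.00437% of CpGs were. Few reads per CpG let large differences go uncalled. In HOXA single CpGs reached 88.9 points above DMSO, and the lowest adjusted p of a CpG there was 0.0147 (exact test). At an unadjusted p under 0.05 there were 117 windows and 486 CpGs, where the genome had 12.6% of windows and 5.46% of CpGs. With 10 points in place of 25, 3 of 38 promoters were called higher against 0.867% of all promoters, and none lower against 0.574%. These 3 were HOXD9, HOXD4 and HOXA4. Among windows 3 of 566 were called higher against 0.0591%, and 1 lower against 0.166%. When reads were divided by the number of CpGs, none of these promoters or windows was called. Over the genome 0% of promoters and 0% of windows were called that way in either direction.

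HOXD9, a gene of the lower trunk and limb, had the lowest adjusted p of the 38. Its promoter stood at 17.5%, 14.5%, 5.90% and 26.7%. The EED inhibitor library was above all others, by 12.2 points over DMSO (9.21 to 15.2, Fisher's exact test with Benjamini-Hochberg adjusted p = 5.46e-12) and by 9.28 over non-differentiated cells (adjusted p = 2.37e-06), which is under 10 points and so not called. With CpGs counted equally it was 11.3 points above DMSO. With a promoter of 2000 bp upstream the difference was 8.00 points and was not called, and with a minimum of 20 reads fewer than 5 CpGs were left and HOXD9 was not tested. Of 74 shared CpGs, which are 74 of 151 in the reference, 43 were higher than with DMSO and 17 lower, and 36 were above both DMSO and non-differentiated cells. The difference lay around the start: from 250 bp before to 500 bp after it, 50 CpGs averaged 19.7%, 12.7%, 6.21% and 31.1%. The 24 CpGs further upstream averaged 13.0%, 19.5%, 5.70% and 16.3%, with the EED inhibitor below DMSO. The window chr2:176122001-176123000 over the HOXD9 start went from 10.9% with DMSO to 25.5%, with 40 of 62 CpGs higher and 10 lower.

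HOXD4, a gene of the hindbrain and neck, stood at 12.2%, 11.9%, 5.62% and 24.2%. Its pooled difference from DMSO, 12.3 points (7.96 to 16.6, exact test, adjusted p = 7.20e-06), was 5.78 points with CpGs counted equally. Against non-differentiated cells it was 11.9 points higher (7.61 to 16.3, exact test, adjusted p = 1.68e-05), and HOXD4 was the 1 promoter of the 38 called higher at 10 points there. Its reads were spread unevenly: the 7 of its 28 CpGs at 20% or more before differentiation held 31.7% of the reads with the EED inhibitor and 18.7% with DMSO. All 7 lie upstream of the start, where, from 1000 to 251 bp before it, 10 CpGs averaged 41.7%, 35.3%, 13.2% and 46.2%. The 18 CpGs around and after the start averaged 3.52%, 4.15%, 1.36% and 7.10%. With a promoter of 2000 bp upstream the difference was 2.25 points and was not called. The window chr2:176151001-176152000 at HOXD4, which holds 26 of these 28 CpGs, stood at 11.3% with DMSO and 24.0%, a difference of 12.7 points that was 5.93 with CpGs counted equally.

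HOXA4 stood at 58.3%, 50.9%, 24.4% and 62.2%, 11.3 points above DMSO (5.17 to 17.3, exact test, adjusted p = 0.00912) and 9.55 with CpGs counted equally. It was 3.97 points above non-differentiated cells (exact test, adjusted p = 0.543). Only 24 of its 119 CpGs were seen, and with a minimum of 20 reads the difference was 8.86 points and was not called.

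The remaining window called higher, chr7:27213001-27214000 at the outer end of HOXA, stood at 23.5%, 17.2%, 6.62% and 33.0%, with 18 of its 25 CpGs higher than with DMSO and a difference of 10.9 points with CpGs counted equally. The window called lower, chr7:27111001-27112000 in the span of HOXA3, stood at 66.9%, 67.05%, 22.8% and 44.2% over 8 CpGs, of which 6 were lower.

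Other promoters differed by less. HOXB3 was 9.45 points above DMSO (exact test, adjusted p = 0.0256), HOXD1 7.99 (0.0834), HOXB5 6.46 (0.0201) and HOXD12 6.25 (6.89e-05). With CpGs counted equally HOXB3 was 9.80 points above DMSO, HOXD1 8.52, HOXB5 only 2.68 and HOXD12 5.82. Against non-differentiated cells HOXB5 differed by -0.365 points in pooled reads. The adjusted p of HOXD12 was under 0.01, as was that of HOXA9, 4.26 points above DMSO (exact test, adjusted p = 0.00107), but neither reached 10 points. With CpGs counted equally HOXA9 was 2.75 points above DMSO. Below DMSO were HOXC12 (difference -5.45 points, exact test, adjusted p = 0.115), HOXD8 (-3.38, 0.0317), HOXB1 (-2.80), HOXA7 (-2.26) and HOXA2 (-2.24). With CpGs counted equally they differed by -4.26, -2.42, -0.923, -1.18 and -2.59 points in the same order. As a group the HOXD promoters stood at 14.3% with DMSO and 18.6% with the EED inhibitor, and had stood at 15.9% before differentiation.

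**Figure D5:**
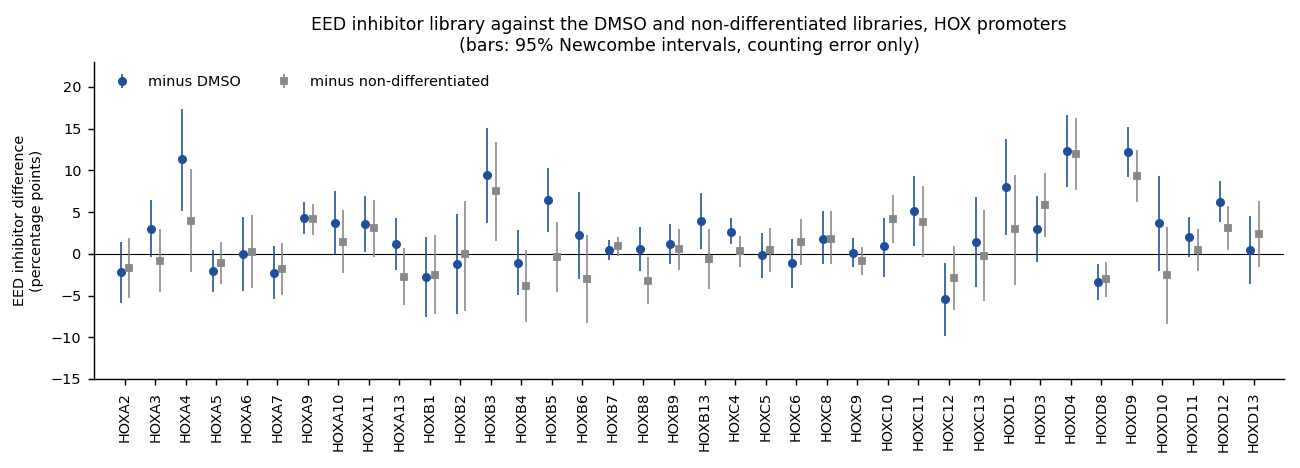
Difference in promoter methylation (percentage points) of the EED inhibitor library from the DMSO library and from the non-differentiated library for the 38 genes, with 95% Newcombe intervals (counting error only). The intervals of HOXD9, HOXD4, HOXB3, HOXA9 and HOXD12 lie above 0 against both libraries, while HOXA4 stands 11.3 points above DMSO and 3.97 above non-differentiated cells.

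Promoters of genes that work with the HOX genes were read the same way. Of 9 cofactors of HOX proteins 7 had at least 5 shared CpGs, and 2 were called lower with the DNMT1 inhibitor, against 43.7% of all promoters: PBX4 went from 62.8% to 15.3% and PKNOX1 from 34.2% to 7.63%. With the EED inhibitor PBX4 differed from DMSO by -10.2 points (exact test, adjusted p = 0.000191). MEIS1, a cofactor of HOX proteins in blood progenitors, stood at 5.14%, 2.70%, 0.671% and 2.64%.

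Of 13 trithorax and Polycomb genes, which keep HOX genes on or off, 12 could be read and 5 were called lower with the DNMT1 inhibitor, near the 43.7% of all promoters: MEN1, EZH1, SUZ12, CBX2 and RNF2. EZH1 went from 74.5% to 23.4% and SUZ12 from 29.5% to 2.85%. The promoter of EED itself was nearly unmethylated in every library, at 0%, 0.344%, 0% and 1.21%. KMT2A, EZH2 and BMI1 were under 1% throughout. None of these genes was called with the EED inhibitor.

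Of 14 ParaHox genes and cluster neighbours 4 were called lower with the DNMT1 inhibitor, CDX1, MTX2, TTLL6 and SKAP1, again against 43.7% of all promoters. EVX1 and EVX2, the homeobox genes that flank HOXA and HOXD, stood at 18.6% and 8.94% with DMSO and at 22.9% and 10.9% with the EED inhibitor.

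The 18 non-coding starts inside the clusters were not among the promoters tested, and levels are given with no test. Their median was 13.9%, 12.6%, 3.08% and 13.1%, so several of those named here lie far above it. The median difference of the DNMT1 inhibitor from DMSO was -8.96 points. In HOXB, HOXB-AS2 stood at 86.6% with DMSO and 9.33% with the DNMT1 inhibitor, HOXB-AS3 at 81.5% and 14.7%, and HOXB-AS4 at 62.6% and 7.08%. In HOXA, HOXA-AS2 stood at 74.1% and 30.1%, and HOXA-AS3 at 79.4% and 33.5%. HOTAIR, in HOXC, stood at 2.22%, 2.11%, 0% and 3.77%, and HOTTIP, at the end of HOXA, at 11.8%, 6.85%, 1.11% and 11.9%. HOTAIRM1 stood at 13.1%, 13.6%, 2.83% and 10.9%.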

How the data were processed

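The members and gene lists were chosen with earlier results of these data known. Per the submitters' processing notes, reads were processed with Trim Galore 0.6.7, cutadapt 4.1, Bismark, Bowtie2 2.1.0 and methylKit on hg38; their roles and settings are not given in the sources used here. In the authors' deposited tables every line is a CpG with a read count (its coverage) and the percent of these that read C or T, both strands merged. Every listed CpG had at least 10 reads, so thinly covered CpGs, which are frequent in dense promoters, are not analysed here.

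Methylated counts were recovered as percent times coverage, rounded. CpGs listed in all 4 libraries on chromosomes 1 to 22 and X were used, and 99.9913% of them lay on a CpG of the hg38 reference. A level is methylated reads over all reads of a stretch, so deep CpGs weigh more. Means with equal weights per CpG are given for some results only. Genes came from GENCODE 44, with MANE Select or Ensembl canonical starts. Single CpGs, 1000 bp windows (3 or more shared CpGs) and promoters (5 or more) were compared between 2 libraries by two-sided Fisher's exact tests, adjusted by Benjamini-Hochberg genome-wide. Calls required 25 points, or 10 where stated, and an adjusted p under 0.01. The code was tested on simulated data. Groups follow the labels.

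Named promoters are the 5 with the largest difference in each direction of each comparison and the highest and lowest of each cluster; named windows are the 3 largest falls per cluster for the DNMT1 inhibitor. Windows and promoters at 10 points, HOXD12, HOXA9 and the runs were chosen after their values were seen, as were the non-members named beyond the 3 largest differences. Alternatives were other read minimums, weights, window and promoter sizes, thresholds, reads divided by CpGs, and the non-differentiated library as reference. Python 3.11.15, numpy 2.4.6, pandas 2.3.3, numba 0.67.0, scipy 1.17.1 and matplotlib 3.10.9 were used.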

Additional observations from a re-analysis of the deposited data

How the results depend on the processing

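No library was left out in turn, since that leaves a group empty. Depth sets the counting error and also the weight of each CpG in a level. No paired analysis was possible because each group holds 1 library.

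Differences from non-differentiated cells with DMSO were -0.777 points in HOXA, 0.209 in HOXC (a change of sign) and -2.16 in HOXD with a minimum of 20 reads, -1.03 in HOXA with equal weights per CpG, -0.767 in HOXD over every listed CpG, and -2.46 in HOXD without CpGs under 20% in all libraries. For the DNMT1 inhibitor, HOXA to HOXD in order, they were -21.9, -39.4, -14.2 and -14.4 with 20 reads, -33.4, -52.0, -33.3 and -29.1 without CpGs under 20%, and -22.6, -36.1, -14.4 and -13.4 against non-differentiated cells. With equal weights they were -21.4 in HOXA, -34.1 in HOXB and -11.7 in HOXD, and over every listed CpG -20.2 in HOXA and -33.3 in HOXB.

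For the EED inhibitor the differences were -0.143 (a change of sign), 0.455, 0.865 and 0.737 against non-differentiated cells. Without CpGs under 20% they were 2.52 in HOXA, 4.02 in HOXC and 5.30 in HOXD, with equal weights 1.01 in HOXA, and over every listed CpG 1.08 in HOXD.

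With 20 reads the kept shares were 34.5%, 20.7%, 19.7% and 25.1%, HOXA to HOXD, and 27.0% over the genome (28.0% with equal weights); in the densest methylated class they were 68.4% in HOXA, 27.9% in HOXB and 50.5% over the genome (51.6% with equal weights). HOXA stayed above HOXB.

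Counts with the DNMT1 inhibitor were 411 of 943 windows of 500 bp (82.3% over the genome), 394 of 566 windows and 19 of 38 promoters at 10 points (94.6% and 68.2%), 0 promoters with divided reads (18.5%), and 1195 of 3311 CpGs with 20 reads (68.8%). For the EED inhibitor at 25 points, 1 window was lower with 20 reads and 1 with windows of 500 bp, over the genome 0.0324% and 0.0466%, and at an adjusted p under 0.05 there were 1 lower and 2 higher CpGs (0.0244% and 0.00554%). At 10 points there were 3 windows and 3 promoters higher and 1 window lower. At 10 points, the higher windows were 0 with divided reads (0% over the genome) and 7 of 943 of 500 bp (0.0481%). Against non-differentiated cells there was 1 higher window (0.0173%). The lower windows were 0 with divided reads (0%). The higher promoters were 0 with 20 reads (26 tested, 0.452% of all promoters), with divided reads (0%) and with 2000 bp upstream (0.579%), and 1 each from 250 bp upstream to 50 bp downstream (0.287%) and against non-differentiated cells (0.497%). The HOXB7 promoter differed by 0.246 points with the DNMT1 inhibitor over that short stretch, a change of sign. The causes of these changes were not tested.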
